A study of Mus musculus with 62 samples.

Results

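The 36 genes described here encode members of the glutamate receptor families, the transporters that load glutamate into synaptic vesicles, and scaffolds that hold receptors at the postsynaptic membrane. They were taken by gene symbol from the 23038 genes listed in each deposited table, and all 36 were found. By role they comprise 4 AMPA receptor subunits (Gria1 to Gria4), 7 NMDA receptor subunits (Grin1, Grin2a to Grin2d, Grin3a, Grin3b), 5 kainate receptor subunits (Grik1 to Grik5), 1 delta receptor (Grid1), 6 metabotropic receptors (Grm2, Grm3, Grm4, Grm5, Grm7, Grm8), 3 vesicular transporters (Slc17a6, Slc17a7, Slc17a8) and 10 scaffolds (Dlg1 to Dlg4, Shank1 to Shank3, Homer1 to Homer3).

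Glutamate opens AMPA, kainate and NMDA receptors, which are ion channels built of 4 subunits, and activates metabotropic receptors, which act through G proteins. In NMDA receptors the shared subunit GluN1 (Grin1) combines with GluN2 or GluN3 subunits that set the kinetics and change during development, with GluN2B and GluN2D prominent early. DLG proteins bind receptor tails, SHANK proteins form a deeper layer of the postsynaptic density, and HOMER proteins link SHANK to metabotropic receptors of the mGluR5 type. Inhibitory neurons carry these receptors as the targets of excitatory input, and most of them lack vesicular glutamate transporters. NOVA1 is a neuronal RNA-binding protein known for regulating alternative splicing, including that of synaptic genes. The tables count whole genes, so isoforms were not measured.

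RNA sequencing covered 62 mouse libraries (BL6 background) in 15 groups. At postnatal day 21, mice with Nova1 knocked out in inhibitory neurons (labelled cKO) were compared with mice labelled cHet, the reference genotype, in caudate putamen, hypothalamus, substantia nigra and periaqueductal gray (4 libraries of each genotype per region) and in pituitary (3 of each). The promoter that drove Cre and the alleles behind cHet are not given in the labels. Ribosome-bound RNA was recovered through tagged ribosomes (TRAP) from whole brains of cKO and cHet mice at postnatal day 0 (n = 6 each), to capture inhibitory neurons. Primary neurons of ventral diencephalon and mesencephalon were prepared from e13.5 embryos, infected on day 7 in culture and harvested on day 14. Their lentivirus carried GFP, Cre and Impact (KO with Impact), GFP and Cre (KO), or GFP alone (WT), with n = 4 each, and Impact is a gene the design text calls a Nova1 target. The labels do not say which libraries share an animal, pool or culture, so p-values measure the spread between libraries.

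Libraries held 2.24 to 29.5 M tags (reads assigned to genes; M is mega), with the lowest totals in pituitary (2.24 to 3.10 M). Levels are CPM, tag counts scaled to a library of 1 M tags, and p-values were adjusted by the Benjamini-Hochberg method over every gene that entered the comparison, and 0.05 was the limit for "rose", "fell" and "called". Nova1, the targeted gene, was at 45.5 to 80.7 CPM in cKO and 97.0 to 113 CPM in cHet hypothalamus, and at 8.10 to 17.1 CPM in cKO and 44.9 to 52.1 CPM in cHet caudate putamen. It was at 99.5 to 168 CPM in cKO and 166 to 199 CPM in cHet periaqueductal gray, where ranges overlapped (adjusted p = 0.114), and at 24.9 to 46.0 CPM in cKO and 81.9 to 86.0 CPM in cHet substantia nigra. In pituitary, Nova1 ran from 4.39 to 7.05 CPM in cKO and from 9.09 to 11.4 CPM in cHet (adjusted p = 0.762). In TRAP it ran from 11.3 to 20.5 CPM in cKO and from 121 to 156 CPM in cHet. In primary neurons it ran from 20.7 to 25.4 CPM in KO with Impact, from 13.1 to 17.6 CPM in KO and from 183 to 203 CPM in WT. One caudate putamen cKO library (replicate 1) has a title that names the periaqueductal gray and a tissue label that names the caudate putamen. The tissue label was used, and the summed striatal projection neuron markers ran from 5414 to 6301 CPM over all 4 caudate putamen cKO libraries, against 131 to 153 CPM in periaqueductal gray cKO.

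Few of the 36 genes changed between genotypes in any brain region, and their share was close to that of all genes. In hypothalamus 3 of 36 were called (8.33%, against 12% of all genes tested), 1 higher and 2 lower, where 5.57% of all genes rose and 6.42% fell. In periaqueductal gray 4 of 36 were called (11.1%, against 9.73%), 2 higher and 2 lower, where 4.33% of all genes rose and 5.40% fell. In caudate putamen 4 of 36 were called (11.1%, against 10.4%), 1 higher and 3 lower, where 5.32% of all genes rose and 5.06% fell. In substantia nigra 4 of 35 were called (11.4%, against 9.81%), 2 higher and 2 lower, where 4.35% of all genes rose and 5.46% fell; Slc17a8 did not pass the filter on low counts there. These shares are not a result about the genes as a group. The calls fell on 10 genes, of which Grin2d and Grm3 were called in 3 regions each, Grik5 in 2 regions and the other 7 genes in 1 region. Grin2d and Grm3 fell wherever they were called, and Grik5 rose. The other 26 genes were called in no region by edgeR within each region with all libraries. They include Grin1, Grin2a, Grin2b, Grm5, Dlg2, Dlg3, Dlg4, the 3 SHANK genes and the 3 vesicular transporters. Of the 26, Dlg1 was called in hypothalamus by DESeq2 (13.8% of all genes called) and in substantia nigra by a fit over the 4 regions (2168 of 16042 genes called). Within a region, edgeR also called Dlg1 in hypothalamus without cKO 4 (2058 of 15345 genes called). It called Grin1 in caudate putamen without cKO 3 (1533 of 15137) and without cKO 4 (1939 of 15132).

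The 250 bases before 1 annotated start of transcription are shown for these 3 genes because they were the ones called in more than 1 region. They are the RefSeq windows on GRCm38.p6, all on the minus strand, and read 5′ to 3′ towards the gene; they lie at chr7:45866682-45866931 for Grin2d, chr5:9725353-9725602 for Grm3 and chr7:25072370-25072619 for Grik5. The Grm3 window abuts the end of the annotated gene range (9725352). The Grin2d and Grik5 windows lie inside the gene ranges, which end at 45871194 and 25075694, so longer transcripts start upstream of them. Bases just after each start, which are not printed, were sought in annotated transcripts of the gene in the printed direction. They were found for Grin2d and not for Grm3 or Grik5. Capitals mark GC boxes, searched as GGGCGG or its reverse complement CCGCCC.
Grin2d: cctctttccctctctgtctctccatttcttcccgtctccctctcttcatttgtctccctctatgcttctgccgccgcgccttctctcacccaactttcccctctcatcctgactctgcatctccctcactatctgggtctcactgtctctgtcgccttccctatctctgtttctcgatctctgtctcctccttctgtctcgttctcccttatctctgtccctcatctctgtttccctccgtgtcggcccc
Grm3: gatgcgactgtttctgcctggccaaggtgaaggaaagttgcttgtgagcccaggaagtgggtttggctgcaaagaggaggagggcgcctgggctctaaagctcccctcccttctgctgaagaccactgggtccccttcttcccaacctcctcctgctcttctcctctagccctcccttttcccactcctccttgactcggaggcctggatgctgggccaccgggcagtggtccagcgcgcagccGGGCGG
Grik5: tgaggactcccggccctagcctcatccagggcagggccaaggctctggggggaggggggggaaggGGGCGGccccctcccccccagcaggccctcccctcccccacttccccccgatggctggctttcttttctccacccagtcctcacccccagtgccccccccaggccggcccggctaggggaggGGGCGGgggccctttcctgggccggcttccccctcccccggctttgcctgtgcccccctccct
The Grin2d window held 0 GC boxes, the Grm3 window 1 and the Grik5 window 2, and 32.7% of the 32817 such windows in the table held at least 1. G and C made up 54.4% of the Grin2d window, 62.4% of the Grm3 window and 75.2% of the Grik5 window, against a median of 52.4% over all windows. These matches describe the letters and show no binding.

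Grin2d encodes GluN2D, an NMDA receptor subunit with slow deactivation and weak magnesium block that is known from subcortical regions and from interneurons. In hypothalamus it was at 41.2, 44.0, 37.9 and 38.4 CPM in cKO and at 47.9, 48.1, 49.3 and 50.2 CPM in cHet. All 4 cKO libraries lay below all 4 cHet libraries, with a log2 fold change of -0.27 (SE 0.07, adjusted p = 0.0107). In periaqueductal gray it was at 50.4, 49.6, 44.5 and 45.7 CPM in cKO and at 58.8, 60.0, 62.0 and 57.2 CPM in cHet. The groups again did not overlap (log2 fold change -0.31, SE 0.07, adjusted p = 0.00945). In substantia nigra, where the difference was largest among the 4 regions, Grin2d was at 23.3, 25.5, 26.6 and 25.4 CPM in cKO and at 36.7, 37.0, 38.0 and 31.6 CPM in cHet (log2 fold change -0.50, SE 0.08, adjusted p = 0.00231). In caudate putamen, which had the lowest Grin2d level of the 4 regions, the log2 fold change was -0.11 and did not pass. The 3 calls held when any 1 library was left out. Grin2d shares 643 of its 6658 annotated exonic bases with an antisense gene, Gm45441, and whether the counting used strand is not given.

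Grm3 encodes mGlu3, a group II metabotropic receptor of presynaptic terminals and glia. In caudate putamen it was at 67.0, 57.5, 58.8 and 60.0 CPM in cKO and at 85.4, 84.4, 95.5 and 77.2 CPM in cHet. All cKO libraries lay below all cHet libraries (log2 fold change -0.48, SE 0.07, adjusted p = 0.000878), and the call held without any 1 library. In substantia nigra it was at 13.53, 13.4, 16.4 and 20.5 CPM in cKO and at 20.7, 20.02, 27.7 and 23.5 CPM in cHet. The highest cKO library reached above the lowest cHet library, and the log2 fold change was -0.51 (SE 0.14, adjusted p = 0.0289). That call was lost without cKO 1, 2 or 3 or without cHet 3 or 4 (adjusted p = 0.0509 to 0.0955). In hypothalamus Grm3 was at 19.3, 16.5, 17.0 and 22.9 CPM in cKO and at 23.4, 23.2, 25.5 and 22.3 CPM in cHet, and 1 cKO library lay within the cHet range. The log2 fold change was -0.32 (SE 0.10, adjusted p = 0.0422), and leaving out any 1 library other than cKO 4 ended the call (adjusted p = 0.0589 to 0.137). In periaqueductal gray the log2 fold change was -0.32 and did not pass.

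Grik5 encodes the kainate receptor subunit GluK5, which forms channels only together with GluK1, GluK2 or GluK3. In caudate putamen it was at 514, 531, 467 and 449 CPM in cKO and at 381, 379, 419 and 387 CPM in cHet. Every cKO library lay above every cHet library (log2 fold change 0.33, SE 0.06, adjusted p = 0.00271). In hypothalamus the 4 cKO libraries were close to each other at 231, 232, 231 and 231 CPM, and the cHet libraries were at 199, 209, 187 and 194 CPM. The groups did not overlap (log2 fold change 0.23, SE 0.05, adjusted p = 0.00513). Both calls held without any 1 library. In periaqueductal gray and substantia nigra the log2 fold changes were 0.10 and 0.05, and neither passed.

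**Figure D1:**
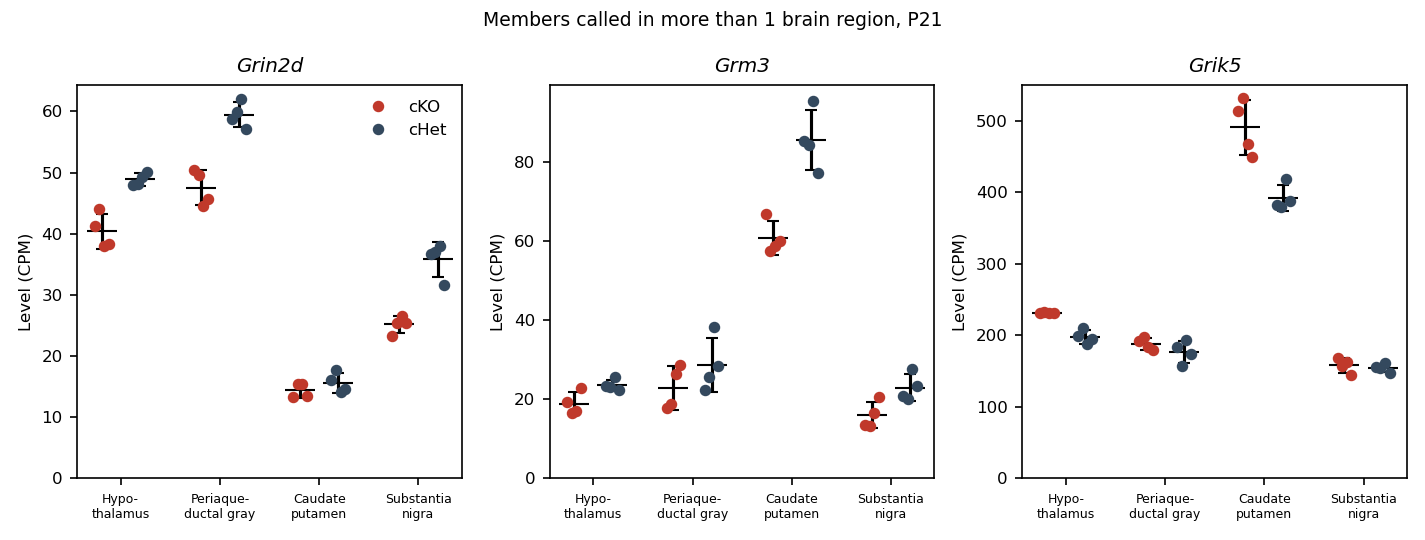
Levels of Grin2d, Grm3 and Grik5 (CPM, linear axes from 0) in 4 brain regions at postnatal day 21, with cKO (red) left of cHet (dark blue). Points are libraries (n = 4 per group) and bars are the mean with SD. Grin2d in substantia nigra lay between 23.3 and 26.6 CPM in cKO and between 31.6 and 38.0 CPM in cHet, and Grik5 in caudate putamen between 449 and 531 CPM in cKO and between 379 and 419 CPM in cHet.

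The remaining calls were each in 1 region. In periaqueductal gray 2 kainate receptor subunits rose. Grik2, which encodes GluK2, was at 62.3, 74.1, 82.1 and 74.5 CPM in cKO and at 55.0, 54.5, 57.7 and 60.2 CPM in cHet (log2 fold change 0.37, SE 0.08, adjusted p = 0.0074). Grik1, which encodes GluK1, was at 27.4, 31.8, 30.9 and 35.0 CPM in cKO and at 24.9, 22.6, 26.5 and 27.2 CPM in cHet (log2 fold change 0.31, SE 0.09, adjusted p = 0.0361). Grm4, the presynaptic group III receptor mGlu4, was at 46.9, 48.4, 49.8 and 50.5 CPM in cKO and at 57.4, 54.9, 71.5 and 56.3 CPM in cHet (log2 fold change -0.28, SE 0.08, adjusted p = 0.0312). None of these 3 genes had overlapping groups. The Grik2 call held without any 1 library, the Grik1 call was lost without cHet 1 or 2 or cKO 2, 3 or 4 (adjusted p = 0.0587 to 0.113), and the Grm4 call without cKO 1, 2 or 3 or cHet 3 (adjusted p = 0.0522 to 0.0872).

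In caudate putamen Grin2c, which encodes the NMDA receptor subunit GluN2C, was at 41.7, 45.0, 46.9 and 49.96 CPM in cKO and at 54.3, 57.1, 56.0 and 60.2 CPM in cHet (log2 fold change -0.30, SE 0.07, adjusted p = 0.0117). Homer2, a scaffold that binds group I metabotropic receptors, was at 21.8, 19.8, 20.8 and 20.3 CPM in cKO and at 26.2, 23.9, 26.1 and 25.2 CPM in cHet (log2 fold change -0.29, SE 0.08, adjusted p = 0.0241). In both genes every cKO library lay below every cHet library. The Grin2c call held without any 1 library, and the Homer2 call was lost without cHet 1, 3 or 4 or cKO 2 (adjusted p = 0.0542 to 0.0690).

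In substantia nigra Gria2, whose GluA2 subunit makes AMPA receptors impermeable to calcium once its RNA is edited, was at 246, 237, 218 and 264 CPM in cKO and at 202, 209, 204 and 193 CPM in cHet (log2 fold change 0.27, SE 0.07, adjusted p = 0.0217). Homer3, another scaffold of the same family, was at 28.2, 23.6, 29.8 and 24.5 CPM in cKO and at 20.4, 20.3, 21.1 and 22.5 CPM in cHet (log2 fold change 0.34, SE 0.09, adjusted p = 0.0308). The groups did not overlap in either gene. The Gria2 call was lost without cKO 1 or 2 or cHet 1 (adjusted p = 0.0507 to 0.0655), and the Homer3 call without cKO 1 or 3 or cHet 1, 2 or 3 (adjusted p = 0.0585 to 0.0944). With the replicate number as a block (5.98% of all genes called) neither was called (adjusted p = 0.0588 for Gria2 and 0.0744 for Homer3). Homer3 shares 874 of its 3440 annotated exonic bases with Ddx49 on the opposite strand. Ddx49 had a log2 fold change of 0.19 in substantia nigra (adjusted p = 0.173) and rose in caudate putamen (0.36, adjusted p = 0.00482), where Homer3 had 0.22 and did not pass. Its part in the Homer3 value was not tested.

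By role, AMPA receptor subunits kept log2 fold changes between -0.13 and 0.27 over the 4 regions, with the highest that of Gria2 in substantia nigra. Kainate receptor subunits lay between -0.28 and 0.37, with 4 calls that were rises (2 of Grik5, 1 of Grik1 and 1 of Grik2). NMDA receptor subunits lay between -0.65 and 0.24, with 4 calls that were falls (3 of Grin2d and 1 of Grin2c). Their lowest value was that of Grin3b in substantia nigra, the least abundant subunit per kb, which did not pass. Metabotropic receptors lay between -0.51 and 0.19, with 4 calls that were falls (3 of Grm3 and 1 of Grm4). Per region, 4.33% to 5.57% of all genes rose and 5.06% to 6.42% fell, and calls of 1 gene in several regions are counted separately here. Vesicular transporters lay between -0.82 and 0.42, both values of Slc17a7, with 0 calls. Scaffolds lay between -0.29 and 0.34, with the Homer2 fall and the Homer3 rise as their calls. The median log2 fold change over the genes was -0.046 in caudate putamen, -0.029 in hypothalamus, -0.031 in substantia nigra and -0.017 in periaqueductal gray, beside 0.0028, -0.0029, 0.0014 and -0.0018 over all genes.

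Markers of other cells differed between the same libraries. The summed endothelial and mural cell markers ran from 101 to 122 CPM in cKO and from 139 to 158 CPM in cHet hypothalamus, and were below the cHet range in every cKO library of the other 3 regions too; of 10 markers, 2 fell in caudate putamen, 6 in hypothalamus, 5 in substantia nigra and 3 in periaqueductal gray. The summed oligodendrocyte markers ran from 11153 to 14720 CPM in cKO and from 13633 to 16144 CPM in cHet hypothalamus, from 20225 to 25533 CPM in cKO and from 22620 to 28041 CPM in cHet periaqueductal gray, from 16768 to 21704 CPM in cKO and from 17971 to 21677 CPM in cHet caudate putamen, and from 41886 to 48714 CPM in cKO and from 42440 to 58116 CPM in cHet substantia nigra. Of these 9 markers, 5 fell in hypothalamus and 2 in each other region. The oligodendrocyte precursor markers ran from 753 to 780 CPM in cKO and from 784 to 844 CPM in cHet substantia nigra, without overlap. In caudate putamen they ran from 383 to 418 CPM in cKO and from 350 to 386 CPM in cHet. The erythroid markers ran from 48.3 to 64.4 CPM in cKO and from 67.9 to 90.0 CPM in cHet hypothalamus, without overlap. The serotonergic markers ran from 77.3 to 536 CPM in cKO and from 224 to 502 CPM in cHet periaqueductal gray. The summed GABAergic neuron markers ran from 791 to 1056 CPM in cKO and from 748 to 876 CPM in cHet periaqueductal gray. Their cKO and cHet ranges overlapped in each of the 4 regions. The summed astrocyte markers, whose cells also express Grm3, ran from 4815 to 5349 CPM in cKO and from 4754 to 5277 CPM in cHet caudate putamen. Of the 9 astrocyte markers, 2 rose and 2 fell in hypothalamus, 2 rose and 1 fell in periaqueductal gray, 1 rose and 1 fell in caudate putamen, and 2 rose and 0 fell in substantia nigra, beside 4.33% to 6.42% of all genes in each direction per region. The part of these cells in the changes above was not tested, and in bulk tissue fewer cells of a type cannot be told apart from less RNA per cell.

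Over the 4 regions together, the average cKO effect was called in 13 of 36 genes (36.1%, against 39.0% of all genes tested), with 5 higher and 8 lower, beside 19.4% and 19.6% of all genes. The rise was in Grik5 (0.17, SE 0.03, adjusted p = 1.51e-05), Homer3 (0.26, SE 0.05, adjusted p = 0.000158), Gria2 (0.11, SE 0.03, adjusted p = 0.000687), Grik2 (0.15, adjusted p = 0.000893) and Grid1, the delta receptor (0.11, adjusted p = 0.00624), on the log2 scale. The fall was in Grin2d (-0.30, SE 0.04, adjusted p = 7.08e-08), Grm3 (-0.41, SE 0.07, adjusted p = 2.05e-05), Dlg1 (-0.13, SE 0.03, adjusted p = 0.000189), Grin2c (-0.17, adjusted p = 0.000727), Grm4 (-0.19, adjusted p = 0.00109), Gria3 (-0.09, adjusted p = 0.017), Shank1 (-0.13, adjusted p = 0.0282) and Gria4 (-0.09, adjusted p = 0.0315). The median over the 36 genes was -0.028, beside 0.0023 over all genes. Dlg1, the DLG scaffold also found outside synapses, was called by edgeR in no region fitted alone with all libraries. Its log2 fold changes were -0.11 in caudate putamen, -0.15 in hypothalamus, -0.15 in substantia nigra and -0.11 in periaqueductal gray. Grid1 had 0.11, 0.11, 0.08 and 0.13 in the same order.

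Libraries of different regions with the same replicate number may come from the same animal. With 1 mean per replicate number and genotype in place of 4 libraries (limma, an alternative chosen after seeing the data), 9 of the 13 genes were called, beside 26.4% of all genes, and Gria3, Gria4, Grid1 and Shank1 were not. The same 4 calls were also the ones lost in some fits without 1 replicate number. Gria3 and Shank1 were lost without number 1, 2 or 3 (adjusted p = 0.0697 to 0.140 and 0.0654 to 0.225), Gria4 without number 1 or 3 (0.113 and 0.222) and Grid1 without number 2 (0.224).

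None of the 36 genes was called for a difference in the genotype effect between regions (edgeR interaction test, 0.318% of all genes called, with 8 of the 36 at an unadjusted p under 0.05). That was beside 8.69% of all genes at that unadjusted p. The lowest adjusted p was that of Grik2 (0.0755), whose log2 fold changes were -0.12 in caudate putamen, 0.18 in hypothalamus, 0.19 in substantia nigra and 0.37 in periaqueductal gray. With the replicate number as a block within each genotype, edgeR called Grik2 (adjusted p = 0.0249, 0.941% of all genes called). DESeq2 without a block called Grik1 and Grik2 (1.25% of all genes). Without 1 replicate number or without caudate putamen cKO 1, the lowest adjusted p of the 36 genes ran from 0.106 to 0.583. Grik1 had -0.03, 0.17, -0.28 and 0.31 in the same order of regions (adjusted p = 0.127 in edgeR). The Grin2d effects, although called in 3 regions and not in caudate putamen, were not shown to differ (adjusted p = 0.309), nor were those of Grik5 (0.244) and Grm3 (0.971).

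**Figure D2:**
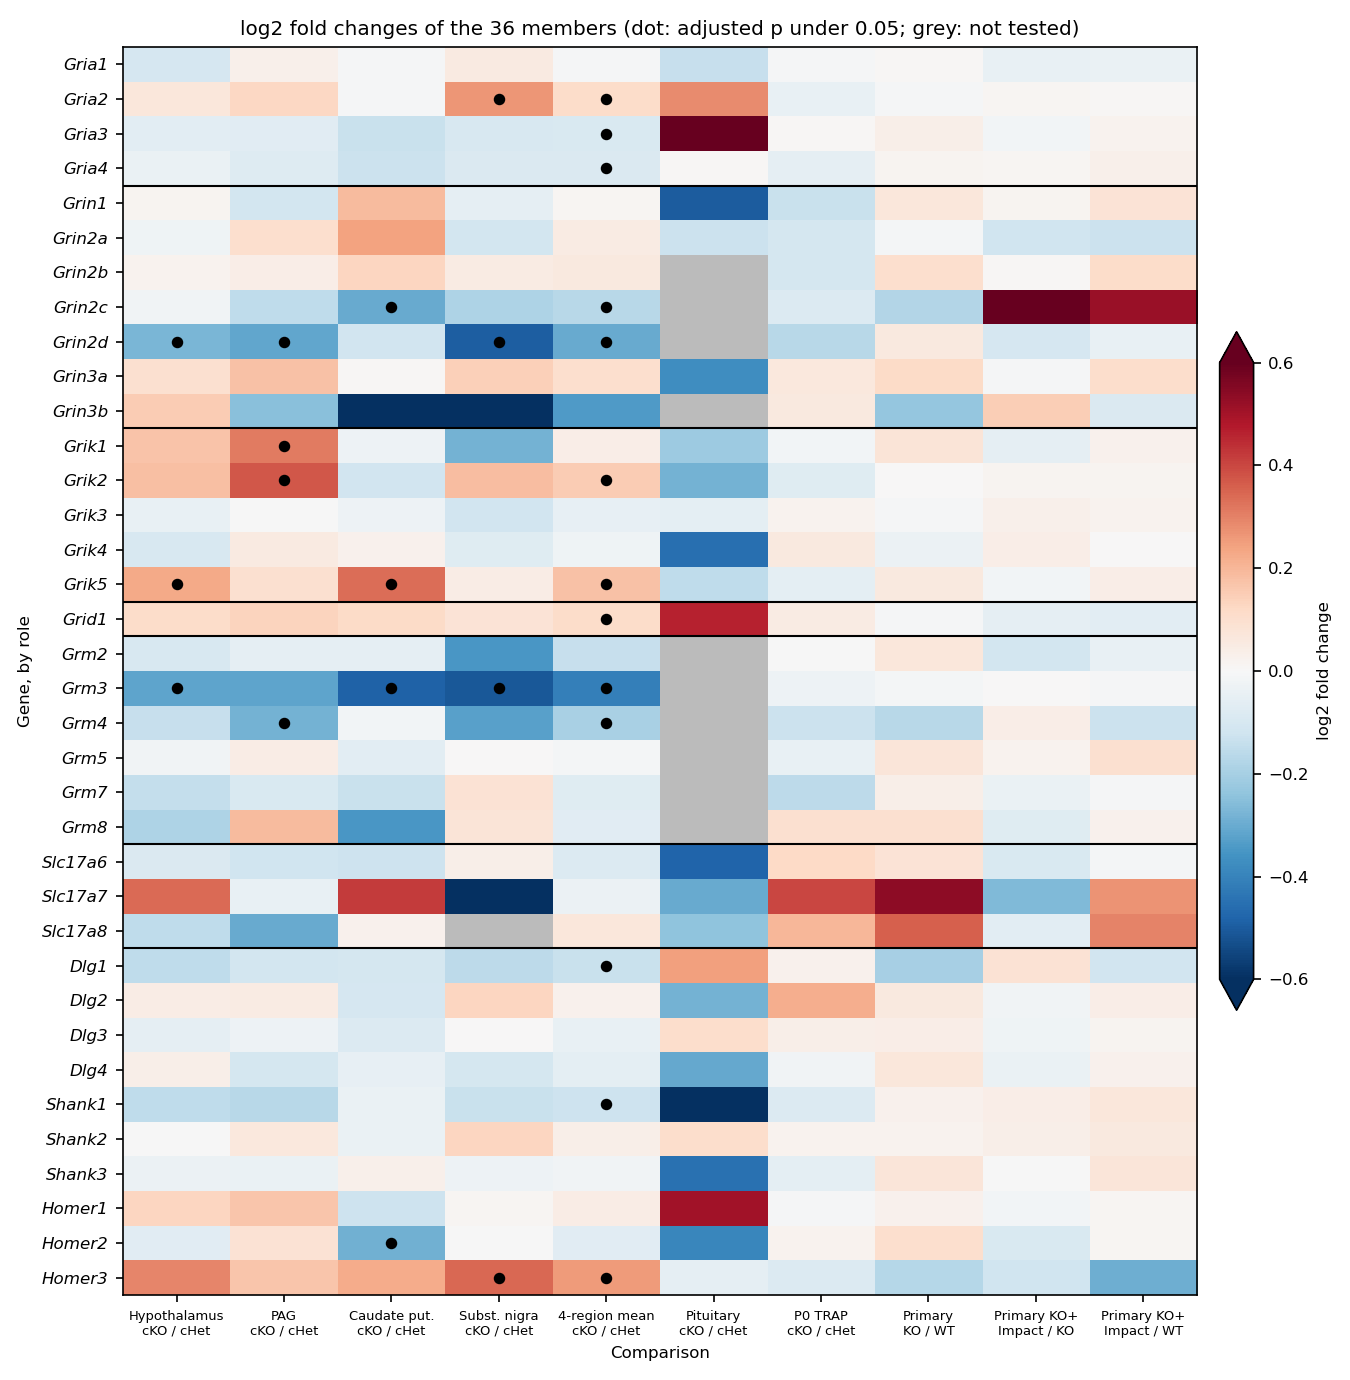
log2 fold changes (colour, from -0.6 to 0.6, larger values at the end colours) of the 36 genes, grouped by role, in 10 comparisons. PAG is the periaqueductal gray, black dots mark an adjusted p under 0.05, and grey marks genes not tested. Dots appear in the brain region columns, where Grin2d and Grm3 are blue and Grik5 is red, and in none of the pituitary, TRAP and primary neuron columns.

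Related genes that are not among the 36 were counted in the same fits. They include a list of 3 other glutamate receptor genes whose calls are not given here. Its summed CPM overlapped between cKO and cHet in each of the 4 regions. Of 18 auxiliary and trafficking genes of AMPA and kainate receptors, 6 rose and 5 fell on average over the 4 regions (61.1% called, beside 39.0% of all genes, 19.4% higher and 19.6% lower). Gsg1l, an AMPA receptor auxiliary subunit, rose (0.25, adjusted p = 2.33e-06), Shisa9, another auxiliary subunit, fell (-0.20, adjusted p = 5.38e-06), Grip2, which binds AMPA receptor tails, fell (-0.30, adjusted p = 4.96e-05) and Cacng5, a transmembrane AMPA receptor regulatory protein, rose (0.29, adjusted p = 9.73e-05). Of 23 other postsynaptic density genes, 7 rose and 4 fell (47.8% called), among them Dlgap1, which links DLG to SHANK proteins (0.24, adjusted p = 4.39e-09), Arc, an activity-regulated gene of AMPA receptor endocytosis (-0.78, adjusted p = 1.73e-08), and Nlgn1, an adhesion molecule of excitatory synapses (0.19, adjusted p = 6.04e-05). Of 12 genes of glutamate uptake and metabolism, 3 rose and 3 fell (50% called), among them the liver-type glutaminase gene Gls2 (-0.59, adjusted p = 1.60e-12) and the astrocytic transporter gene Slc1a3 (0.27, adjusted p = 3.52e-10).

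In caudate putamen Arc was at 26.6 to 34.0 CPM in cKO and at 50.6 to 119 CPM in cHet (log2 fold change -1.53, adjusted p = 0.000226). It fell in the other 3 regions as well, by 0.56 in hypothalamus, by 0.59 in periaqueductal gray and by 0.44 in substantia nigra. By region, the auxiliary and trafficking list had 1 higher and 2 lower in hypothalamus (5.57% of all genes rose and 6.42% fell), 1 higher and 1 lower in periaqueductal gray (4.33% and 5.40%), 0 higher and 1 lower in caudate putamen (5.32% and 5.06%), and 5 higher and 1 lower in substantia nigra (4.35% and 5.46%). In substantia nigra the lowest adjusted p belonged to Cacng5 (0.83, adjusted p = 0.00227).

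In pituitary 0 of the 26 genes that passed the filter on low counts were called by edgeR or DESeq2 (0.00815% of all genes in edgeR), and 3 had an unadjusted p under 0.05, as had 6.54% of all genes. With the replicate number as a block, 0 were called and 0.269% of all genes. The 10 that were not tested were the 6 metabotropic receptors, Grin2b, Grin2c, Grin2d and Grin3b. The lowest adjusted p was that of Shank1 (log2 fold change -0.61, SE 0.18, adjusted p = 0.511). Gria3 had a log2 fold change of 1.00 with an SE of 0.39 and was not called (adjusted p = 0.653).

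In ribosome-bound RNA at postnatal day 0, none of the 36 genes was called by edgeR or DESeq2 (0.0307% of all genes called in edgeR), and 3 had an unadjusted p under 0.05, as had 7.44% of all genes. The smallest was that of Slc17a7, the vesicular transporter VGLUT1, which ran from 14.3 to 19.2 CPM with a median of 15.9 in cKO and from 9.39 to 14.2 CPM with a median of 12.6 in cHet. The groups did not overlap, as the lowest cKO value exceeded the highest cHet value before rounding, and the log2 fold change was 0.40 (SE 0.11, adjusted p = 0.488). Grin2d, which fell in 3 brain regions at postnatal day 21, ran from 92.8 to 118 CPM with a median of 110 in cKO and from 107 to 139 CPM with a median of 119 in cHet. These ranges overlapped (log2 fold change -0.17, SE 0.07, adjusted p = 0.641). Grm3 had -0.03 and Grik5 had -0.06. AMPA receptor subunits lay between -0.06 and 0.01 and kainate receptor subunits between -0.07 and 0.06. The summed GABAergic markers ran from 1375 to 1654 CPM in cKO and from 1634 to 1735 CPM in cHet. The TRAP libraries are named male or female in the deposited data. With sex as a term, edgeR called none of the 36 genes, beside 4 of all 13009 genes.

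In primary neurons, by the fit without the replicate number, 0 of 36 were called for KO against WT (edgeR, 0.722% of all genes called), 0 for KO with Impact against KO (0.00674%) and 0 for KO with Impact against WT (0.378%), and 3, 0 and 4 genes had an unadjusted p under 0.05, beside 11.0%, 3.11% and 8.48% of all genes. DESeq2 called 1 gene, Slc17a8, for KO against WT (2.16% of all genes), and none in the other 2 comparisons. Impact itself was at 1596 to 1942 CPM in KO with Impact, 143 to 198 CPM in KO and 271 to 329 CPM in WT. AMPA receptor subunits had log2 fold changes between -0.01 and 0.04 for KO against WT, and kainate receptor subunits between -0.04 and 0.08. Of the 12 genes of glutamate uptake and metabolism, Slc7a11, the cystine and glutamate exchanger, fell in KO with Impact (-0.56, adjusted p = 0.0105) and in KO (-0.59, adjusted p = 0.00547), each against WT. The comparisons share groups, so their values are not independent.

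Libraries with the same replicate number deviated together in primary neurons, and with the number as a block 3 of the 36 genes were called for KO against WT (8.33%, beside 6.35% of all genes under the block). The block left 0 called for KO with Impact against KO (0.182% of all genes) and 0 for KO with Impact against WT (3.39%). Slc17a7 was at 10.2, 14.8, 2.87 and 8.49 CPM in KO with Impact, at 13.9, 16.2, 3.90 and 9.55 CPM in KO, and at 9.16, 13.1, 1.75 and 6.15 CPM in WT, in the order of replicates 1 to 4. It was higher in KO than in WT in 4 of 4 numbers, while the spread over numbers within a group was wider than that difference. The log2 fold change was 0.60 with the block (SE 0.11, adjusted p = 0.0014) and 0.54 without it (SE 0.51, adjusted p = 0.777).

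Slc17a8, the transporter VGLUT3 of small groups of non-canonical glutamate-releasing neurons, was at 16.7, 16.5, 17.7 and 18.9 CPM in KO with Impact, at 18.9, 19.5, 17.4 and 16.9 CPM in KO and at 12.5, 13.8, 16.0 and 14.5 CPM in WT. Every KO library lay above every WT library, as did every library of KO with Impact. The summed astrocyte markers ran from 1270 to 1395 CPM in KO with Impact, from 1213 to 1318 CPM in KO and from 1348 to 1447 CPM in WT, and the serotonergic markers from 46.4 to 70.9 CPM in KO with Impact, from 55.9 to 73.9 CPM in KO and from 45.3 to 66.5 CPM in WT; their part in the changes was not tested. For KO against WT the log2 fold change was 0.36 with the block (SE 0.08, adjusted p = 0.00972) and 0.36 without it (SE 0.09, adjusted p = 0.073), and without WT replicate 3 it passed in the fit with no block (adjusted p = 0.0442). For KO with Impact against WT it was 0.30 (adjusted p = 0.0508 with the block and 0.249 without). Dlg1 was at 61.7, 49.7, 50.7 and 55.6 CPM in KO with Impact, at 53.4, 56.0, 45.6 and 49.6 CPM in KO and at 60.2, 63.0, 55.3 and 57.3 CPM in WT. It was lower in KO than in WT in 4 of 4 numbers (log2 fold change -0.20 with the block, SE 0.06, adjusted p = 0.03; adjusted p = 0.295 without). Slc17a6, the transporter VGLUT2 and by far the most abundant of the 3 in these cultures per kb of exon, ran from 337 to 386 CPM in KO with Impact, from 350 to 410 CPM in KO and from 339 to 390 CPM in WT.

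**Figure D3:**
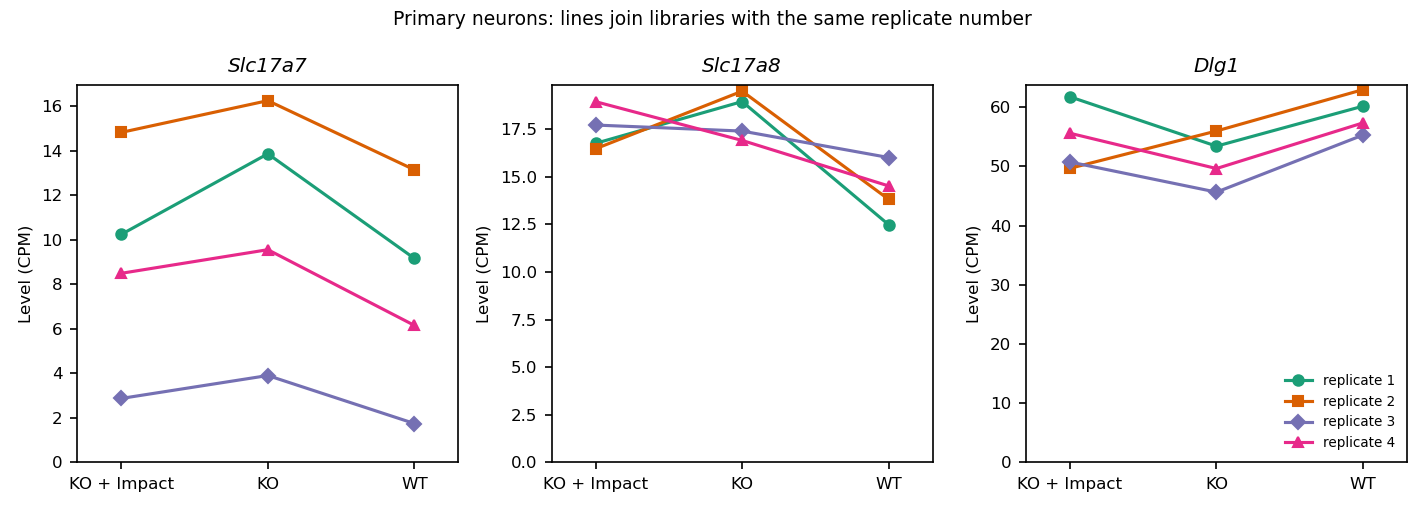
Levels of Slc17a7, Slc17a8 and Dlg1 (CPM, linear axes from 0) in primary neurons infected with GFP, Cre and Impact (KO + Impact), GFP and Cre (KO) or GFP (WT). Each point is a library and each line joins the libraries of 1 replicate number (n = 4 per group). Slc17a7 and Slc17a8 were higher and Dlg1 lower in KO than in WT in all 4 numbers.

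Most of the 36 genes differed between regions of the cHet mice. In the cHet libraries each region was set against the mean of the other 3 regions, and 33 of 36 genes were called in caudate putamen (64.4% of all genes were), 30 of 36 in hypothalamus (48.8%), 33 of 36 in periaqueductal gray (48.0%) and 32 of 36 in substantia nigra (67.7%). Caudate putamen had 24 genes higher and 9 lower (beside 32.5% and 31.9% of all genes), hypothalamus 23 higher and 7 lower (26.5% and 22.4%), periaqueductal gray 15 higher and 18 lower (24.9% and 23.1%), and substantia nigra 3 higher and 29 lower (31.8% and 35.9%). The medians of the 36 log2 fold changes were 0.80, 0.29, -0.12 and -1.02, beside medians between -0.024 and 0.0061 over all genes.

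The vesicular transporters separated the regions most. VGLUT2 (Slc17a6) was at 389, 372, 448 and 412 CPM in periaqueductal gray and at 350, 303, 372 and 355 CPM in hypothalamus. It was at 13.7, 10.7, 7.12 and 10.2 CPM in caudate putamen and at 9.75, 10.2, 20.7 and 10.1 CPM in substantia nigra. The log2 fold changes against the other 3 regions were 3.50 in periaqueductal gray, 3.23 in hypothalamus, -3.50 in caudate putamen and -3.24 in substantia nigra (SE 0.11 to 0.17). VGLUT1 (Slc17a7), the transporter of cortical projection neurons, was at 132, 58.7, 69.2 and 37.0 CPM in caudate putamen and at 51.2, 27.4, 55.8 and 41.2 CPM in hypothalamus. It was at 4.82, 4.24, 4.75 and 4.45 CPM in periaqueductal gray and at 0.791, 0.947, 3.51 and 1.19 CPM in substantia nigra. The caudate putamen libraries thus spread over a wide range, and the summed cortical excitatory markers ran from 47.6 to 66.1 CPM there, from 74.0 to 78.4 CPM in hypothalamus, from 62.3 to 73.7 CPM in periaqueductal gray and from 54.9 to 66.9 CPM in substantia nigra. VGLUT3 (Slc17a8) was at 21.7, 19.4, 21.7 and 19.4 CPM in caudate putamen, at 20.5, 17.6, 8.11 and 12.1 CPM in periaqueductal gray and at 8.15, 7.99, 7.02 and 7.43 CPM in hypothalamus. In substantia nigra it had 1 to 12 tags per library.

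In caudate putamen Homer1 (log2 fold change 3.02, SE 0.08) and Shank3 (1.97, SE 0.06) were among the 4 largest rises beside Slc17a7 (3.46) and Slc17a8 (2.63), each with an adjusted p of at most 4.46e-12. Homer1 was at 190, 185, 256 and 173 CPM there, against at most 32.0 CPM in any library of the other 3 regions. The largest falls beside Slc17a6 were in Grm2, the group II receptor mGlu2 (-2.16), Grin2d (-1.55) and Grik1 (-1.06). In hypothalamus Grm2 (2.98), Slc17a7 (2.46) and Grm8, the group III receptor mGlu8 (1.13), rose beside Slc17a6. Grin3b (-1.49), Homer1 (-0.68), Grm3 (-0.65) and Grin2c (-0.55) had the largest falls there. Grin3b was low everywhere, at a mean of 0.623 CPM in cHet hypothalamus, 1.42 CPM in caudate putamen, 1.86 CPM in substantia nigra and 2.27 CPM in periaqueductal gray. It shares 1059 of its 3296 exonic bases with Tmem259 on the opposite strand. The 4 comparisons share libraries, and a fall against the mean of 3 regions need not be the lowest level. Mean Homer1 was 29.2 CPM in hypothalamus, 24.1 CPM in periaqueductal gray, 23.2 CPM in substantia nigra and 201 CPM in caudate putamen. Mean Grm3 was 23.6 CPM in hypothalamus and 23.0 CPM in substantia nigra. In periaqueductal gray Slc17a8 (1.95), Grm2 (1.71) and Grm8 (1.67) rose beside Slc17a6, and Slc17a7 (-1.93), Homer1 (-1.09), Shank3 (-0.96) and Grin2b (-0.50) had the largest falls.

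In substantia nigra the 3 genes that were higher than the mean of the other 3 regions were Homer3 (0.58), Grin2c (0.31) and Homer2 (0.25). Substantia nigra did not have the highest mean for all of them. Grin2c was at a mean of 56.9 CPM in cHet caudate putamen and 51.6 CPM in substantia nigra. Homer2 was at 45.4 CPM in cHet hypothalamus and 39.0 CPM in substantia nigra. The largest falls were in Slc17a8 (-5.34), Slc17a7 (-3.98), Slc17a6 and Grm8 (-2.71). The summed oligodendrocyte markers were at 42440 to 58116 CPM in these cHet libraries, against 22620 to 28041 CPM in periaqueductal gray, 17971 to 21677 CPM in caudate putamen and 13633 to 16144 CPM in hypothalamus. Their part in the lower levels was not tested.

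In cHet pituitary, set against cHet hypothalamus, 35 of 36 genes were called (68.7% of all genes were), with 5 higher and 30 lower (beside 33.0% and 35.7% of all genes) and a median log2 fold change of -2.15. The largest falls were in Grm4 (-6.66), Slc17a6 (-5.21), Grm3 (-5.20) and Grin2b (-5.15), and their order is not fixed, since Grm3 had 0 to 4 tags per pituitary library and its fitted value was -11.49 without pituitary cHet 2. Slc17a8 was higher (2.11, SE 0.18), at 24.8, 30.3 and 39.9 CPM in pituitary and at 7.02 to 8.15 CPM in hypothalamus. Grin3b (1.96), Homer3 (0.75) and Homer2 (0.60) were the next largest rises, and the Grin3b call was lost without pituitary cHet 3 (adjusted p = 0.129). Grin3b was tested in 3 of the 7 fits without 1 library, and it shares 1059 of its 3296 exonic bases with Tmem259 on the opposite strand. The pituitary libraries differ from the brain libraries in depth and in the share of ribosomal RNA as well as in tissue. All pituitary libraries are named male in the deposited data, which give no sex for the brain regions.

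Compared per kb of exon, the scaffold Dlg4, which encodes the main DLG protein of the postsynaptic density, had the highest level of the 36 genes in every control group, from 60.3 ± 18.3 CPM per kb in cHet pituitary (SD, n = 3) to 379 ± 19.0 CPM per kb in cHet caudate putamen (SD, n = 4). Among NMDA receptor subunits, Grin1 led in the 4 brain regions (30.1 to 65.0 CPM per kb). Of the GluN2 genes, Grin2b was highest in cHet caudate putamen (17.6 ± 1.38 CPM per kb), Grin2d in cHet hypothalamus (11.2 ± 0.241) and periaqueductal gray (13.6 ± 0.460), and Grin2c in cHet substantia nigra (10.4 ± 0.543, SD, n = 4 each). In cHet hypothalamus Grin2b was above Grin2d in CPM (66.9 against 48.9), so that order rests on the deposited exon lengths (7512 and 4383 bases). Whether the deposited lengths match the transcripts present was not tested. In ribosome-bound RNA at postnatal day 0 of cHet mice, Grin2b was at 28.8 ± 6.74, Grin2d at 27.8 ± 2.56 and Grin2c at 0.456 ± 0.156 CPM per kb (SD, n = 6), and Grin2b and Grin2d did not differ beyond their spread. In WT primary neurons Grin2b was at 18.4 ± 1.96, Grin2d at 13.2 ± 0.905 and Grin2c at 0.222 ± 0.0917 CPM per kb (SD, n = 4).

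Among AMPA receptor subunits Gria1 was the highest per kb in the 4 cHet brain regions (40.3 to 90.6 CPM per kb) and in cHet TRAP (73.8 ± 3.21). Gria2 was the highest in WT primary neurons (43.8 ± 1.3, beside 36.4 ± 2.41 for Gria1). In cHet caudate putamen Gria2 was above Gria1 in CPM (731 against 531), so that order rests on the deposited exon lengths (10461 and 5863 bases). In each other cHet brain region Gria1 was above Gria2 in CPM too. Among kainate receptor subunits Grik5 was the highest in each of the 7 control groups, from 29.8 ± 3.36 CPM per kb in cHet pituitary to 101 ± 4.77 CPM per kb in cHet caudate putamen. The summed vesicular transporters ran from 8.60 to 10.8 CPM per kb in cHet TRAP and from 82.5 to 95.7 CPM per kb in WT primary neurons, 2 kinds of sample that differ in age, cells and assay.

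**Figure D4:**
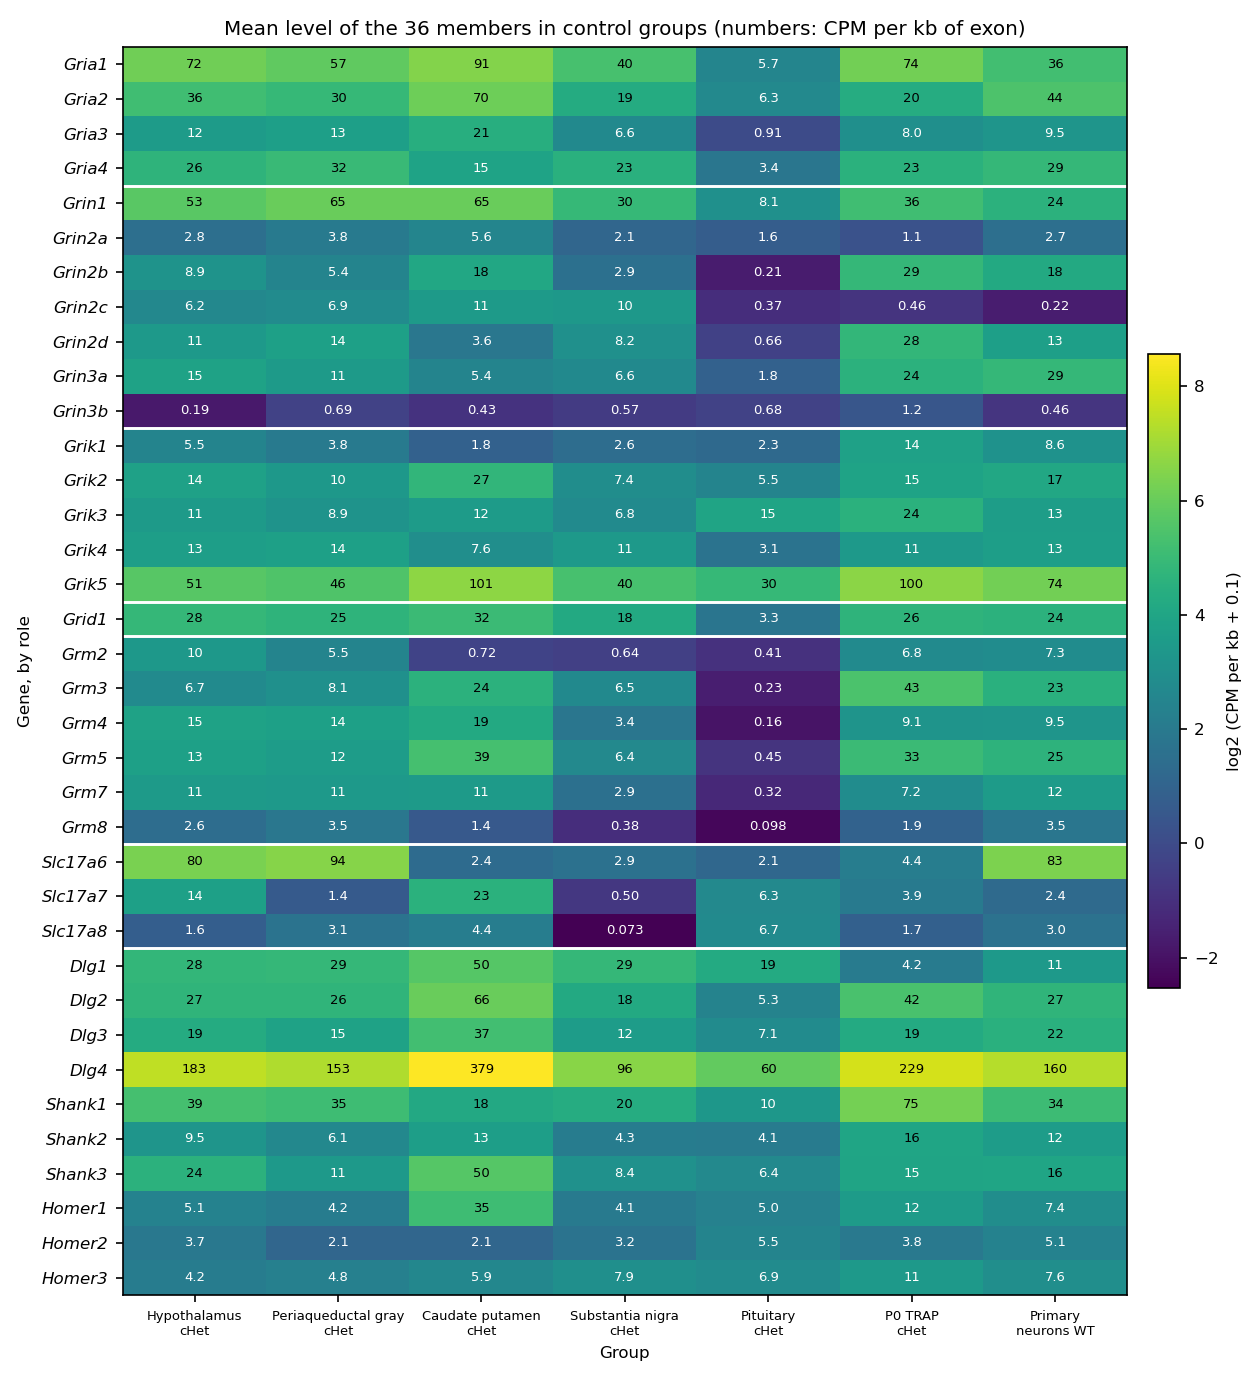
Mean levels of the 36 genes, grouped by role, in the 4 cHet brain regions, cHet pituitary, cHet TRAP and WT primary neurons. Printed numbers are CPM per kb of exon and colour is their log2 after adding 0.1. Dlg4 is the brightest row, Slc17a6 is high in hypothalamus, periaqueductal gray and primary neurons, and most genes are lowest in pituitary.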

How the data were processed

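The authors deposited 1 table per library with counts per gene (tags), exon length and RPKM. The deposited counts are whole numbers in the 6 pituitary tables and estimated counts with fractions in the other 56, which were rounded. The RPKM values that the authors deposited were not used. Genome build mm10 and edgeR are named per the submitters' processing notes; the aligner, counter, annotation and use of strand were not given in the sources used here. Library totals ran from 2.24 to 29.5 M tags, and Rn45s, a ribosomal RNA gene, took 0.472% to 40.8% of them.

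CPM were scaled by TMM over all 62 libraries, and CPM per kb used the deposited exon length. Each comparison was fitted on its own groups with edgeR 4.0.16 (R 4.3.3; filterByExpr, minimum count 10 and minimum total 15; TMM; quasi-likelihood test), with adjusted p over all genes tested. SE is the log2 fold change divided by the square root of F. Alternatives used DESeq2 1.42.0, limma 3.58.1, other scaling and filters, the replicate number as a block, sex as a term in TRAP, and 1 library left out. The fits were tested on simulated data. The simulated libraries were drawn independently of each other, so they cannot show how the fits behave where same-numbered libraries deviate together.

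Genes were named by a rule. Changed genes among the 36 were given in full, the 4 largest changes in each direction were named between regions, and up to 4 genes were named from each other list. The genes and lists were chosen with earlier results of these data known. Same-numbered libraries deviated together in primary neurons (correlations of deviations 0.309 to 0.542) and, weakly, in pituitary (0.121 to 0.151). The main fits there left the number out. Fits with the number as a block are given beside them, and that pairing comes from the data, not from the labels. Same-numbered cKO libraries of different brain regions also deviated together (0.0276 to 0.331, all above 0.1 in 4 of 6 region pairs). The labels do not say that they share an animal. The average and the interaction were also fitted with the number as a block within each genotype. That block does not pair cKO with cHet libraries.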

Additional observations from a re-analysis of the deposited data

Results flagged for a closer look

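Of 39 sets of values of called genes by group that were examined, 2 held a library that stood apart from the other 3, which is about as many as chance gives at the 95% level used. Grik5 in hypothalamus cKO was at 232 CPM in replicate 2, while the other 3 libraries lay between 230.5 and 230.8 CPM, so the gap is small beside the cHet range. Grm4 in periaqueductal gray cHet was at 71.5 CPM in replicate 3, while the other 3 libraries lay between 54.9 and 57.4 CPM, and the Grm4 call was lost without that library.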

How the results depend on the processing

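Over the alternatives run, none of 775 recomputed fold changes of named genes reversed. Of these, 720 kept direction and side of the threshold, 50 lost the call and 5 gained it. They pool the genotype comparisons with those between cHet tissues, and include primary neuron genes not called at first. Genotype calls within 1 region were lost in 0 of 8 fits without 1 library (such as Grin2d in substantia nigra) to 7 of 8 (Grm3 in hypothalamus). DESeq2 called 5 of the genes in hypothalamus (edgeR 3), 5 in substantia nigra (edgeR 4; Grm4 gained), 1 for KO against WT in primary neurons (edgeR 0) and 2 for the interaction (edgeR 0). With the replicate number as a block, 2 were called in substantia nigra (without the block 4, with Gria2 and Homer3 lost) and 3 for KO against WT. The replicate number block gave 4 in hypothalamus, 5 in periaqueductal gray and 4 in caudate putamen. With the number as a block within each genotype, 1 gene, Grik2, was called for the interaction. The fit over 4 regions called 2 in hypothalamus (Grm3 lost) and 6 in substantia nigra (Dlg1 and Grm4 gained). Leaving out 1 library gave 2 to 4 calls in hypothalamus, periaqueductal gray and substantia nigra, 3 to 5 in caudate putamen and 0 to 1 for KO against WT. The causes were not tested. Over all genes, calls moved by more than 1.5 times from the edgeR count given first in substantia nigra (1457, block 889), pituitary (1, no filter 75, DESeq2 5, block 33), TRAP (4, DESeq2 13), KO against WT (107, DESeq2 320, block 942), KO with Impact against KO (1, no filter 2, DESeq2 8, block 27), KO with Impact against WT (56, DESeq2 155, block 503) and the interaction (51, DESeq2 200, block 151). Without 1 library the all-gene counts fell to as few as 1060 of 1823 in hypothalamus (low without cKO 1 or 2), 764 of 1458 in periaqueductal gray (cKO 1 or 2, cHet 2), 826 of 1559 in caudate putamen (cKO 2, any cHet), 705 of 1457 in substantia nigra (cKO 1 or 2, cHet 1 or 2), 46 of 107 for KO against WT (KO 1, 2 or 3, WT 1 or 4), 22 of 56 for KO with Impact against WT (any library of the 2 groups) and 2 of 51 for the interaction (any number, or caudate putamen cKO 1), and ran from 0 to 9 in pituitary and from 1 to 3 for KO with Impact against KO. The shares of all genes given in the report move with these counts. In pituitary 10 genes were not tested for low counts.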
